A study of Homo sapiens with 15 samples.

Results

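The genes described here encode the enzymes and regulators of cholesterol and fatty acid synthesis. They were taken by symbol from the gene-level count table as 32 named genes of the 61544 genes listed. The 32 genes comprise 7 of the mevalonate pathway, 11 of the squalene and sterol steps, 5 SREBP factors and regulators, the sterol carrier STARD4, 4 of fatty acid synthesis and 4 of fatty acid elongation and desaturation. All 32 genes passed the filter on low counts, which left 25108 genes for testing.

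RNA-seq had been performed on HCC95, an established human cell line derived from a lung squamous cell carcinoma (LUSC), a tumor of the squamous lineage. Each group of 3 libraries came from cells transfected with a small interfering RNA (siRNA), a short double-stranded RNA that directs the cleavage of a matching mRNA. Control cells received the negative control siRNA called siNC1, and the knockdown cells received siTP63b, siSOX2b, siKLF5b or siGRHL2a. These siRNAs are directed at TP63, SOX2, KLF5 and GRHL2, transcription factors of squamous and epithelial cells, and the study examined the role of these factors in LUSC cells. All 15 libraries therefore came from a single cell line, every group carried a transfected siRNA, and each factor was targeted by a single siRNA. The labels give no time of collection and do not say whether the 3 libraries of a group were grown as separate cultures. The p-values thus measure the spread between these libraries, which may be technical.

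The counts of siNC1 and siKLF5b (6 libraries) and those of siTP63b, siSOX2b and siGRHL2a (9 libraries) stood under 2 forms of column name in the table. Raw counts summed to 15655495 to 24845273 per library in the 6 libraries and to 22255856 to 34229063 in the 9 libraries. Among counts between 20 and 500, 49.7% to 50.7% were even numbers in the 6 libraries, against 66.1% to 69.0% in the 9 libraries. The 2 sets may thus have been counted differently, which was not tested, and the p-values of the 9 libraries rest on the counts as given. Set and knockdown cannot be told apart across the sets. Comparisons were therefore made only between siKLF5b and siNC1, and among siTP63b, siSOX2b and siGRHL2a, for which no control library of the same form was analysed here. The 3 comparisons among siTP63b, siSOX2b and siGRHL2a share libraries with one another.

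The knockdowns were checked at the targeted genes in CPM, a count scaled to a library total of 1000000 after TMM normalization. KLF5 mRNA measured 123, 109 and 107 CPM in siNC1 and 71.8, 71.8 and 73.8 CPM in siKLF5b, a log2 fold change (log2FC) of -0.64 ± 0.06 (SE). TP63 mRNA was 363 ± 22.3 CPM (SD, n = 3) in siTP63b, against 690 ± 38.2 in siSOX2b and 831 ± 28.3 in siGRHL2a. SOX2 mRNA was 8.97 ± 1.63 CPM in siSOX2b, against 29.5 ± 2.23 in siTP63b and 20.2 ± 1.54 in siGRHL2a. GRHL2 mRNA showed the smallest separation, with 91.3 ± 0.560 CPM in siGRHL2a, 100.2 ± 4.58 in siSOX2b and 117 ± 2.39 in siTP63b. Each targeted gene was thus lowest in its own knockdown within its set, with no overlap between the groups. SOX2 was itself higher in siKLF5b than in siNC1, by a log2FC of 0.54 ± 0.08.

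The squamous identity of the cells was visible in every library. The summed level of 10 squamous and epithelial marker genes ranged from 6433 to 12464 CPM, with KRT5, a basal keratin, as the most abundant. The list includes the 4 targeted genes. This sum was lower in siKLF5b (6433 to 7498 CPM) than in siNC1 (10428 to 11956 CPM), and lower in siTP63b (6834 to 7872 CPM) than in siSOX2b (9684 to 10637 CPM) and siGRHL2a (12104 to 12464 CPM). The adipocyte markers ADIPOQ, PLIN1 and FABP4 summed to at most 0.329 CPM in a library and 3 hepatocyte markers, ALB among them, to at most 0.142 CPM, so the defining markers of these lipid-handling cell types were at or near 0. Fibroblast markers summed to 3.77 to 6.07 CPM in siNC1 and 3.75 to 4.32 CPM in siKLF5b, with COL1A1 the most abundant in most libraries. Among them PDGFRB was lower in siKLF5b than in siNC1 (log2FC -0.85 ± 0.24, adjusted p = 0.00794). The immune list summed to 34.0 to 36.7 CPM in siNC1 and 21.5 to 24.4 CPM in siKLF5b, nearly all of it CD68, which fell (log2FC -0.62 ± 0.09, adjusted p = 2.71e-06), while CD3E and LYZ stayed at or below 0.068 CPM. The endothelial list summed to 14.5 to 14.98 CPM in siNC1 and 10.8 to 13.0 CPM in siKLF5b, most of it VWF. In the other set, fibroblast markers summed to 5.23 to 7.48 CPM in siTP63b, 8.31 to 9.995 in siSOX2b and 7.66 to 8.98 in siGRHL2a, and the endothelial list to 5.03 to 6.92, 3.15 to 4.5996 and 5.61 to 7.54 CPM in the same order. The immune list summed to 28.1 to 31.2, 31.8 to 34.4 and 29.97 to 39.8 CPM. Thus the fibroblast sum was separate and lower in siTP63b, the endothelial sum was separate and lower in siSOX2b, and VWF was lower in siSOX2b than in siGRHL2a (log2FC -0.86 ± 0.15, adjusted p = 4.44e-05) and higher in siTP63b than in siSOX2b (0.73 ± 0.15, adjusted p = 0.000291). CD68 was lower in siTP63b than in siGRHL2a (-0.25 ± 0.08, adjusted p = 0.0204). PDGFRB was lower in siTP63b than in siSOX2b (-1.20 ± 0.21, adjusted p = 2.53e-05) and siGRHL2a (-1.04 ± 0.21, adjusted p = 0.000216). PTPRC, a pan-leukocyte gene, was at most 1.21 CPM and was higher in siSOX2b (mean 1.01 CPM) than in siGRHL2a (mean 0.356 CPM, adjusted p = 0.0263). The part of these markers in the results below was not tested. In such bulk libraries, fewer cells of a type and less RNA per cell cannot be told apart.

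Cells build cholesterol and fatty acids from acetyl-CoA in the cytosol and the endoplasmic reticulum. The mevalonate pathway makes isoprenoid units, squalene synthase commits them to sterols, and a series of oxidations and reductions turns lanosterol into cholesterol, while acetyl-CoA carboxylase and fatty acid synthase make palmitate, which elongases and desaturases then modify. The SREBP transcription factors, encoded by SREBF1 and SREBF2, switch these enzymes on when sterols are scarce. They are held in the endoplasmic reticulum by the SCAP and INSIG proteins and are escorted by SCAP to the Golgi for cleavage, and INSIG1 is itself an SREBP target. SREBF1 products act mainly on fatty acid genes and SREBF2 products mainly on cholesterol genes.

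The 32 genes together summed to 7340 to 7565 CPM in siNC1 and 6746 to 6872 CPM in siKLF5b. These sums rest on the TMM factors and are not shares of the raw counts. The factors were 0.950 to 0.963 in siNC1 and 0.993 to 1.009 in siKLF5b. The sum was 9061 to 9223 CPM in siTP63b, 8784 to 9046 CPM in siSOX2b and 7702 to 8216 CPM in siGRHL2a. Within each set the sums of the groups did not overlap, but without SCD the summed level of the other genes overlapped between siTP63b (5415 to 5706 CPM) and siSOX2b (5453 to 5672 CPM). Per kilobase of exon (Gencode release 44, all exons of a gene merged), SCD, the desaturase that makes oleate and palmitoleate, had the highest level in every group, for example 582 CPM per kilobase in siNC1. It was also the highest in every group per kilobase of the counted gene span, introns included, with 173.5 in siNC1. HMGCS1, which makes HMG-CoA, followed with 129 CPM per kilobase in siNC1, and was also second per kilobase of span, with 32.9. Counts include intronic reads, so the order of the other genes depends on which length is used. The smallest count of any of the 32 genes in a library was 28, for the phosphomevalonate kinase PMVK in siNC1 replicate 3.

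After KLF5 knockdown, 7 of the 8 genes of fatty acid synthesis, elongation and desaturation fell, all but ACSS2, although the FADS2 call did not hold without the counts of the genes that overlap it, and 6 of the 7 mevalonate genes did not pass the test. Of the 32 genes, 11 fell, 2 rose and 19 did not pass at an adjusted p below 0.05, where p came from the quasi-likelihood test of edgeR and was adjusted by Benjamini-Hochberg over all tested genes. Among all tested genes 12.9% were called lower and 10.3% higher. Genes with many counts are called more often, and among the 15346 genes averaging 100 counts or more per library, which include all but PMVK and TM7SF2 of the 32, 20% were called lower and 14.1% higher. The median log2FC of the 32 genes was -0.11, beside -0.0097 for all tested genes and -0.037 for those averaging 100 counts or more. None of the 32 passed the threshold of the study, an absolute log2FC above 0.75, which 3.26% of tested genes did.

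**Figure D1:**
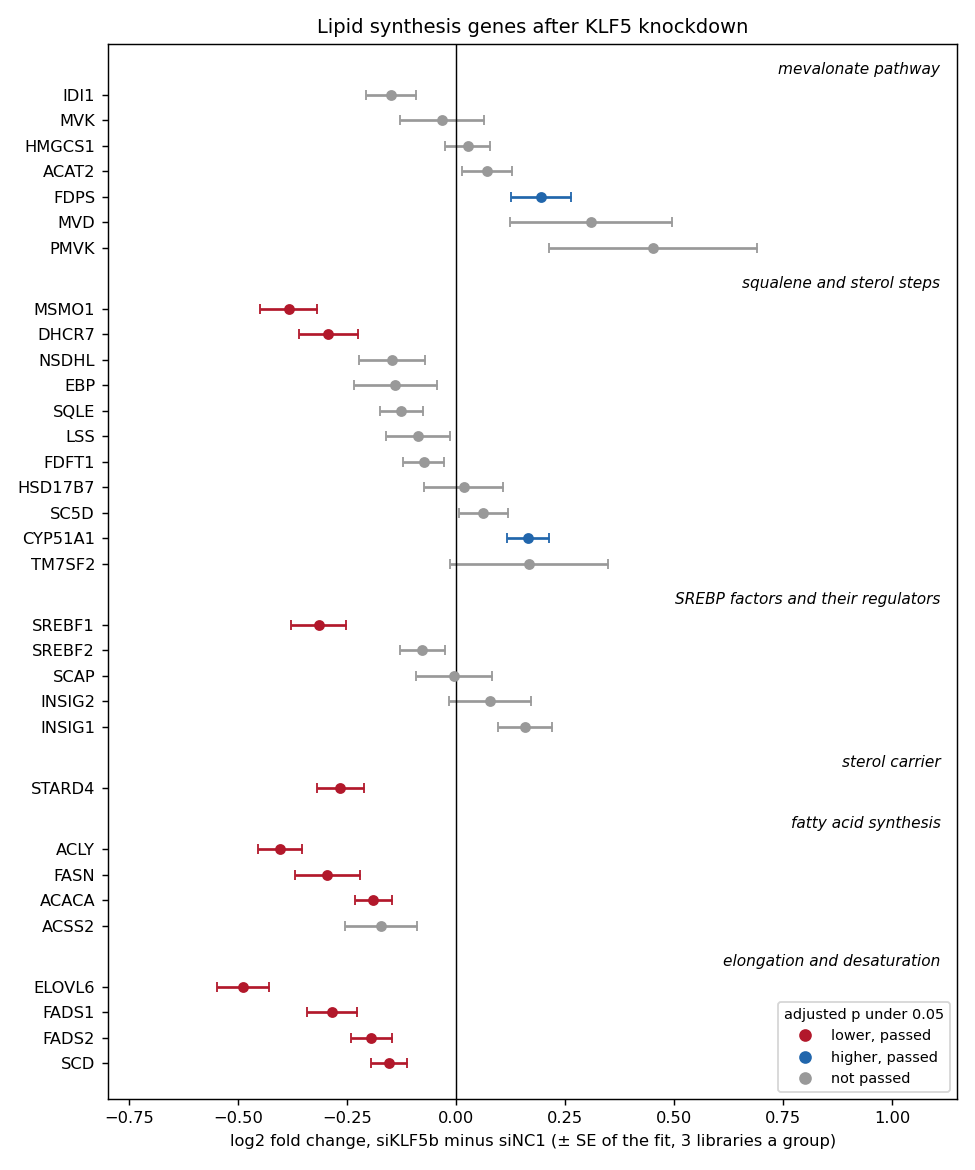
Log2 fold change of each of the 32 genes between siKLF5b and siNC1 (horizontal axis, negative values are lower in siKLF5b), with the standard error of the fit as whiskers and genes grouped by role. All 8 genes of fatty acid synthesis, elongation and desaturation lie below 0, and 7 of them are drawn as passed (FADS2 with the counts of FADS1 and FEN1 included), while the mevalonate genes lie on both sides of 0.

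Among the genes that make and lengthen fatty acids, ELOVL6 and ACLY had the largest decreases of the 32 genes on the log2 scale. ELOVL6, the elongase that extends palmitate to stearate (ENSG00000170522.10, chromosome 4, 110045846 to 110199199 in hg38, minus strand), measured 81.3, 82.9 and 79.7 CPM in siNC1 and 58.8, 59.5 and 55.0 CPM in siKLF5b. Every siKLF5b library was below every siNC1 library, with a log2FC of -0.49 ± 0.06 (SE, adjusted p = 2.46e-07). ACLY, which splits citrate into the acetyl-CoA used for lipid synthesis (ENSG00000131473.17, chromosome 17, 41866917 to 41930542, minus strand), measured 435, 405 and 409 CPM in siNC1. It measured 312, 315 and 317 CPM in siKLF5b. The groups were again apart, with a log2FC of -0.40 ± 0.05 (adjusted p = 2.78e-07). FASN, fatty acid synthase, measured 112, 97.3 and 92.6 CPM in siNC1 and 78.7, 83.0 and 84.7 CPM in siKLF5b (log2FC -0.30 ± 0.07, adjusted p = 0.0033). The siNC1 replicate 1 library was the highest, and the groups did not overlap. ACACA, acetyl-CoA carboxylase, fell by 0.19 on the log2 scale (adjusted p = 0.0012), from 326 ± 5.20 to 286 ± 2.94 CPM. The acetyl-CoA synthetase ACSS2 was also below siNC1 in every library (log2FC -0.17 ± 0.08) but did not pass (adjusted p = 0.142).

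All 4 genes of elongation and desaturation fell. Besides ELOVL6, these were the desaturases SCD, FADS1 and FADS2, of which the FADS enzymes act on polyunsaturated fatty acids. SCD measured 3107, 3013 and 3037 CPM in siNC1 and 2715, 2808 and 2701 CPM in siKLF5b, a small but separate difference (log2FC -0.15 ± 0.04, adjusted p = 0.0063). FADS1 measured 205, 187 and 190.2 CPM in siNC1 and 158, 161 and 159 CPM in siKLF5b (log2FC -0.29 ± 0.06, adjusted p = 0.000326). FADS1 lies within the span of FADS2, which had 256% as many counts, so reads of FADS1 may be shared with FADS2 in every comparison. FADS2 had a log2FC of -0.19 ± 0.05 (adjusted p = 0.0023), but its span overlaps FADS1 and FEN1, whose counts amounted to 39.1% and 23.0% of those of FADS2. With those counts taken away from FADS2, an alternative added after the data were seen, its log2FC was -0.10 and it no longer passed (adjusted p = 0.168).

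**Figure D2:**
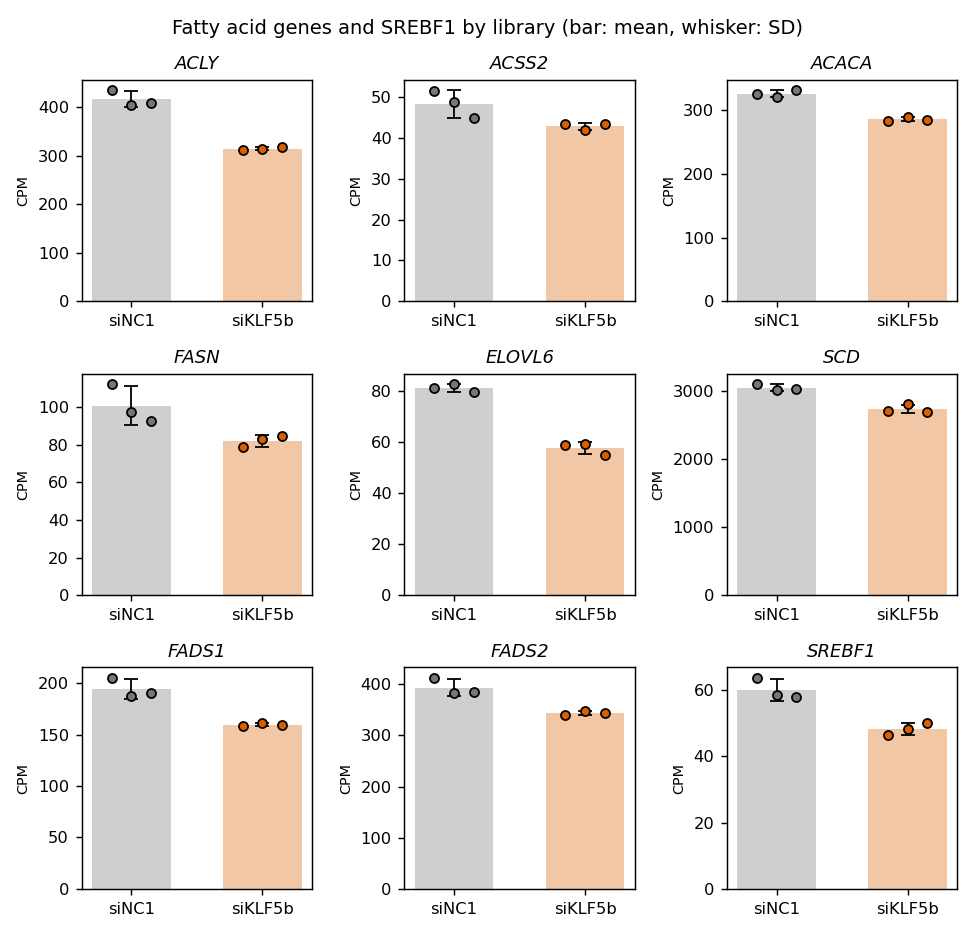
CPM (vertical axis, starting at 0) of the genes of fatty acid synthesis, elongation and desaturation and of SREBF1 in the 3 siNC1 and 3 siKLF5b libraries; points are libraries, bars are means and whiskers are SD. In all 9 panels every siKLF5b point lies below every siNC1 point, with the narrowest gap for ACSS2, from 43.5 to 44.8 CPM. The share of all tested genes that separate in this way was not counted.

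Promoter sequence is shown for ELOVL6, ACLY and MSMO1, the 3 genes with the largest decreases on the log2 scale after KLF5 knockdown. It is also shown for INSIG1, the gene with the widest range of group means on that scale among the other knockdowns. The sequences are from the RefSeq promoter table (GRCh38.p14), 5′ to 3′ on the strand of the gene, and only bases outside annotated exons are printed. Capitals mark CCAAT, the letters read by NF-Y, a usual partner of SREBP, and GGGCGG, the GC box read by Sp and KLF family factors, on either strand, where the other strand reads ATTGG and CCGCCC.
ELOVL6 chr4:110198654-110198803, minus strand, bases 39 to 188 before the start: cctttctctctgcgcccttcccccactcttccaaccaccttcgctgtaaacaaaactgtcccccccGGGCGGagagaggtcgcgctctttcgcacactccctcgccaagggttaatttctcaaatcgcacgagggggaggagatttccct
ACLY chr17:41919023-41919172, minus strand, bases 1 to 150 before the start: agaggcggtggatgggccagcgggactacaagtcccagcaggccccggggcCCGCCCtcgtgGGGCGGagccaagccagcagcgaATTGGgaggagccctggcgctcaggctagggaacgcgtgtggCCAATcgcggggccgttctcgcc
MSMO1 chr4:165327517-165327666, plus strand, bases 3 to 152 before the start: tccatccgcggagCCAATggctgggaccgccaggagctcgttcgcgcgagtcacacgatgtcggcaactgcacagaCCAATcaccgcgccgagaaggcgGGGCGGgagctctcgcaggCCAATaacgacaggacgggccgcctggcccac
INSIG1 chr7:155297628-155297775, plus strand, bases 103 to 250 before the start: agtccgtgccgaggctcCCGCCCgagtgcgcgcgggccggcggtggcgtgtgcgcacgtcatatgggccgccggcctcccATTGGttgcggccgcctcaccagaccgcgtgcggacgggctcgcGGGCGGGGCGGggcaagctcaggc

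The stretch of ELOVL6 holds 1 GC box and 0 CCAAT boxes, that of ACLY 2 of each, that of MSMO1 1 GC box and 3 CCAAT boxes, and that of INSIG1 3 GC boxes, of which 2 overlap, and 1 CCAAT box. The RefSeq starts used for ACLY and ELOVL6 lie 11520 and 584 bases inside the spans counted for the genes, so their printed stretches lie within those spans. For INSIG1 and MSMO1 the starts lie 102 and 2 bases inside, and the printed stretches lie outside the spans. Over the full 250 bases before the start, 28 of the 32 genes had an entry, all but ACAT2, FDFT1, SQLE and FASN. Some genes have several starts (1.39 windows per gene for the 28, 1.29 for all genes and 1.42 for those tested), and a gene was counted when any of its windows held the letters. CCAAT was present in 20 of these 28 (71.4%), against 37.0% of all 27305 genes with an entry and 40.4% of those tested. GGGCGG was present in 27 of 28 (96.4%), against 46.2% and 68.2%, and NSDHL was the gene without it. Counted by window, CCAAT was in 61.5% of the 39 windows of the 28 genes, against 32.5% of the windows of tested genes, and GGGCGG in 89.7% against 58.3%. The SREBP E-box TCANNTGA, which is read the same on both strands, was found in EBP and INSIG1 (7.14%), against 7.53% of all genes. The sterol regulatory element, searched as TCACNCCAC, was found in SREBF2 alone (3.57%), against 1.09% of all genes with an entry. It lies in the stretch printed here with the match in capitals.
SREBF2 chr22:41832962-41832991, plus strand: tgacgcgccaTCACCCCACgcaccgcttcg
These matches are exact letters in a window, so sites that differ from the searched letters were missed. The matches were not tested as binding sites.

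Among the regulators, SREBF1 fell after KLF5 knockdown and the other 4 did not pass. SREBF1 (ENSG00000072310.18, chromosome 17, 17810399 to 17837002, minus strand) measured 63.7, 58.6 and 57.8 CPM in siNC1 and 46.6, 48.2 and 50.1 CPM in siKLF5b. The groups did not overlap and the log2FC was -0.32 ± 0.06 (adjusted p = 0.000319). RAI1 overlaps SREBF1 from base 17810399 to base 17811453 and had 66.2% as many counts over its whole span. Reads in the shared bases may thus belong to either gene. SREBF2 was lower by less (log2FC -0.08 ± 0.05, adjusted p = 0.31), with 108 ± 4.54 CPM in siNC1 and 102 ± 2.13 in siKLF5b. INSIG1, the sterol-regulated anchor of SCAP, measured 197, 194 and 179 CPM in siNC1 and 227, 200.3 and 209 CPM in siKLF5b. Its libraries did not overlap, but the difference of 0.16 ± 0.06 did not pass (adjusted p = 0.0616). INSIG2 (0.08 ± 0.09) and SCAP (-0.01 ± 0.09) overlapped between the groups.

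The sterol genes did not move as a block. MSMO1, the methylsterol monooxygenase that removes methyl groups after lanosterol (ENSG00000052802.13, chromosome 4, 165327667 to 165343164, plus strand), measured 99.2, 93.6 and 95.4 CPM in siNC1 and 77.6, 70.9 and 72.2 CPM in siKLF5b. The groups were well apart, with a log2FC of -0.38 ± 0.06 (adjusted p = 3.06e-05). DHCR7, the reductase of the last step to cholesterol, measured 85.3, 78.0 and 75.5 CPM in siNC1 and 63.2, 65.8 and 65.8 CPM in siKLF5b (log2FC -0.29 ± 0.07, adjusted p = 0.0013). STARD4, which carries sterol between membranes, measured 117, 114 and 114 CPM in siNC1 and 96.7, 93.3 and 97.2 CPM in siKLF5b (log2FC -0.27 ± 0.05, adjusted p = 0.000352). These 3 genes had no overlap between the groups. CYP51A1 moved the other way, from 295 ± 2.38 to 331 ± 8.16 CPM (log2FC 0.16 ± 0.05, adjusted p = 0.0117), as did FDPS, farnesyl diphosphate synthase, from 116 ± 7.44 to 133 ± 2.69 CPM (log2FC 0.19 ± 0.07, adjusted p = 0.0373). The FDPS call was lost without any single library but siNC1 replicate 1 (adjusted p from 0.0755 to 0.187), and the CYP51A1 call without siKLF5b replicate 1 (adjusted p = 0.0829) or siNC1 replicate 2 (0.055). Both genes overlap others, CYP51A1 with AKAP9 (83.6% as many counts) and 2 protein-coding gene models without a symbol (114% and 77.7%), and FDPS with RUSC1-AS1 (55.3%).

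The remaining sterol and mevalonate genes did not pass between siKLF5b and siNC1. SQLE, squalene epoxidase, had a log2FC of -0.13 ± 0.05 (adjusted p = 0.068) and IDI1, the isopentenyl diphosphate isomerase, of -0.15 ± 0.06 (adjusted p = 0.0529), each with every siKLF5b library below every siNC1 library. These depended on the fit: with the 6 libraries of the set alone, IDI1 (adjusted p = 0.00868), SQLE (0.0179) and ACSS2 (0.0467) passed as lower and INSIG1 (0.0042) as higher, which made 14 genes lower and 3 higher. FDFT1, which makes squalene, and LSS, TM7SF2, NSDHL, HSD17B7, EBP and SC5D, which act between squalene and cholesterol, had log2FC between -0.15 and 0.17. The early genes HMGCS1 (0.03 ± 0.05), ACAT2 (0.07 ± 0.06) and MVK (-0.03 ± 0.10) were close to 0. PMVK (0.45 ± 0.24) and MVD (0.31 ± 0.19) had the largest positive values, but their counts were low and their groups overlapped.

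Genes of neighbouring pathways were counted by the same test, and their counts are read against the 10.3% higher and 12.9% lower among all tested genes. Among genes averaging 100 counts or more per library the shares were 14.1% higher and 20% lower. Of 22 tested genes of other fatty acid synthesis, elongation and activation, 8 fell and 1 rose, among them ELOVL7, an elongase (log2FC -0.66 ± 0.07, adjusted p = 4.26e-08), and ACSL1, which activates fatty acids with CoA (-0.51 ± 0.08, adjusted p = 6.16e-06). Of 13 genes of sterol transport, storage and efflux, 5 fell and 1 rose, led by NPC1, which exports cholesterol from lysosomes (-0.71 ± 0.05, adjusted p = 1.6e-11), and the sterol exporter ABCG1 (-0.66 ± 0.06, adjusted p = 2.24e-09). Of 14 genes of glycerolipid synthesis and lipid droplets, 5 fell and 0 rose, including the choline kinase CHKA (-0.43 ± 0.08) and the lipase PNPLA2 (-0.52 ± 0.17). Lower calls thus outnumbered higher calls in these 3 lists, as they did by less among all tested genes. Calls in the isoprenoid branch were 4 higher and 0 lower of 12, and its other genes did not pass. Among those, some means were lower in siKLF5b, such as those of DHDDS and FNTA. The higher genes were led by ICMT, a methyltransferase of prenylated proteins (0.73 ± 0.06, adjusted p = 8.04e-11), and COQ2 of ubiquinone synthesis (0.63 ± 0.12). Among 9 genes of SREBP processing and sterol-regulated degradation, 3 rose and 3 fell, with MBTPS1, the protease that first cleaves SREBP, at 0.38 ± 0.05 and ERLIN2 at 0.40 ± 0.06. Fatty acid oxidation had 3 higher and 2 lower of 22, close to the shares over all tested genes. Its share of lower calls was below the 20% among genes averaging 100 counts or more. The isomerase ECI1 was at 0.66 ± 0.09 and CPT1A, the mitochondrial gatekeeper of oxidation, at -0.22 ± 0.05. The stress response list had 3 higher and 2 lower of 9, with the amino acid enzymes PSAT1 at 0.24 ± 0.05 and ASNS at 0.26 ± 0.06.

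The knockdowns of TP63, SOX2 and GRHL2 were compared with one another, so each difference is relative and does not say which group departed from untreated cells. In the comparison of siTP63b with siSOX2b the 32 genes split, with 8 higher, 9 lower and 15 not passed. Among all tested genes 16.4% were called higher and 15.4% lower, and among those averaging 100 counts or more 21.8% and 21.3%. The median log2FC of the 32 genes was -0.0015, beside 0.00059 for all tested genes. None was past an absolute log2FC of 0.75 in this comparison, which 6.70% of tested genes were.

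**Figure D3:**
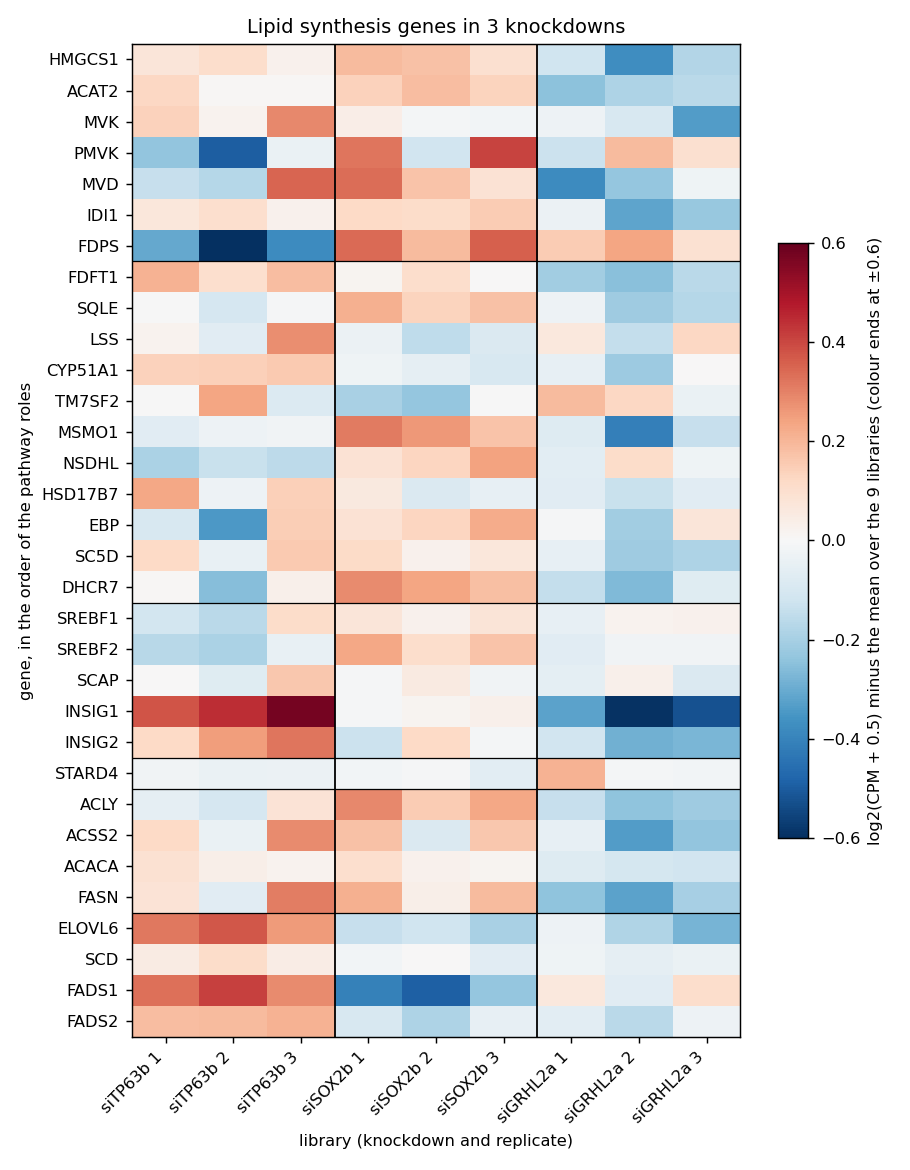
Level of the 32 genes (rows, in order of role) in 9 libraries (columns, siTP63b, siSOX2b and siGRHL2a), as log2(CPM + 0.5) minus the mean of the gene over the 9 libraries, with red above and blue below that mean and the colour ending at 0.6. INSIG1 is red in siTP63b and blue in siGRHL2a, FDPS is blue in siTP63b, and FADS1 is red in siTP63b and blue in siSOX2b.

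Genes of elongation and desaturation were higher in siTP63b than in siSOX2b. FADS1 (ENSG00000149485.19, chromosome 11, 61799627 to 61829318, minus strand) measured 154, 163 and 149 CPM in siTP63b and 92.5, 87.2 and 104 CPM in siSOX2b. The groups were far apart, with a log2FC of 0.72 ± 0.06 (adjusted p = 1.7e-11). ELOVL6 measured 70.8, 73.7 and 67.8 CPM in siTP63b and 51.5, 52.3 and 49.5 CPM in siSOX2b (log2FC 0.47 ± 0.06, adjusted p = 2.01e-07). FADS2 measured 407, 409 and 414 CPM in siTP63b and 336, 315 and 346 CPM in siSOX2b (log2FC 0.30 ± 0.05, adjusted p = 5.14e-06). Neither gene overlapped between the groups, and FADS2 without the counts of FADS1 and FEN1 still passed (log2FC 0.18, adjusted p = 0.00701). SCD was higher in every siTP63b library but did not pass (0.09 ± 0.04, adjusted p = 0.0917). Of the fatty acid synthesis genes, ACLY was lower in siTP63b by 0.25 on the log2 scale (adjusted p = 0.00019), while FASN (-0.03 ± 0.07), ACACA and ACSS2 overlapped between the groups.

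FDPS had the lowest log2FC of the 32 genes in this comparison, while INSIG1 was higher. FDPS, whose product farnesyl diphosphate feeds both sterols and protein prenylation (ENSG00000160752.15, chromosome 1, 155308748 to 155320666, plus strand), measured 104, 80.1 and 98.7 CPM in siTP63b and 163, 146 and 165 CPM in siSOX2b. All siTP63b libraries were lower, and the log2FC was -0.75 ± 0.07 (adjusted p = 2.19e-10), just short of the threshold of 0.75 before rounding. INSIG1 (ENSG00000186480.13, chromosome 7, 155297776 to 155310235, plus strand) measured 438, 457 and 502 CPM in siTP63b and 335, 339.9 and 343 CPM in siSOX2b. It was higher in every siTP63b library, with a log2FC of 0.46 ± 0.06 (adjusted p = 3.28e-07). SREBF2 measured 97.7, 96.2 and 106 CPM in siTP63b and 129, 118 and 124 CPM in siSOX2b and was lower in every siTP63b library (log2FC -0.30 ± 0.05, adjusted p = 1.68e-05). SREBF1 did not pass (-0.11 ± 0.06, adjusted p = 0.152), and INSIG2 passed (0.24 ± 0.09, adjusted p = 0.0331) with overlapping groups.

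Several sterol genes were lower in siTP63b than in siSOX2b. NSDHL, the dehydrogenase that removes the carboxylated methyl group of sterols, measured 26.6, 27.7 and 27.3 CPM in siTP63b and 32.3, 33.3 and 36.1 CPM in siSOX2b (log2FC -0.32 ± 0.07, adjusted p = 0.00085). DHCR7 measured 93.4, 77.7 and 95.1 CPM in siTP63b, with replicate 2 well below the others, and 113, 109.6 and 105 CPM in siSOX2b (log2FC -0.30 ± 0.06, adjusted p = 0.00034). Both were without overlap between the groups, as were MSMO1 (-0.29 ± 0.06) and SQLE (-0.21 ± 0.05), which were also lower in siTP63b. CYP51A1 was higher (0.21 ± 0.05, adjusted p = 0.0012). PMVK (-0.52 ± 0.19) and EBP (-0.23 ± 0.09) passed as lower and FDFT1 (0.12 ± 0.05) and LSS, lanosterol synthase (0.18 ± 0.07), as higher, each with overlapping groups and an adjusted p from 0.0366 to 0.0471. Leaving out single libraries of either group ended each of these 4 calls and that of INSIG2, for example that of LSS without siTP63b replicate 3 (adjusted p = 0.459) and that of EBP without siTP63b replicate 2 (adjusted p = 0.335). HMGCS1, ACAT2, MVK, MVD, IDI1, TM7SF2, HSD17B7, SC5D, SCAP and STARD4 did not pass.

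Against siGRHL2a, most differences of siTP63b were positive. Of the 32 genes 16 were higher, 1 lower and 15 did not pass, beside 13.6% higher and 13.4% lower among all tested genes and 19.4% and 17.6% among those averaging 100 counts or more. The median log2FC was 0.19, beside -0.0090 for all tested genes. INSIG1 was the only one of the 32 past an absolute log2FC of 0.75, as 5.39% of tested genes were. It measured 438, 457 and 502 CPM in siTP63b and 269, 223 and 234 CPM in siGRHL2a, a log2FC of 0.94 ± 0.06 (adjusted p = 1.27e-13). The lowest siTP63b library stood far above the highest siGRHL2a library. INSIG2, its paralog, measured 32.7, 35.9 and 37.7 CPM in siTP63b and 27.7, 24.5 and 24.8 CPM in siGRHL2a, also without overlap (log2FC 0.46 ± 0.09, adjusted p = 0.000109). SREBF1 (-0.05 ± 0.06) and SREBF2 (-0.10 ± 0.05) overlapped between the groups and did not pass, nor did SCAP (0.07 ± 0.08).

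FDPS was the single gene that fell in siTP63b against siGRHL2a. It measured 143, 151 and 137 CPM in siGRHL2a, above all siTP63b libraries given above (log2FC -0.61 ± 0.07, adjusted p = 1.64e-08). The other mevalonate genes HMGCS1 (0.29 ± 0.05), ACAT2 (0.25 ± 0.06), MVK (0.31 ± 0.09) and IDI1 (0.25 ± 0.05) were higher. Some reads of ACAT2, MVK and IDI1 may be shared with overlapping genes, which had at least 98.4% as many counts over their whole spans. FDFT1, squalene synthase, measured 265, 246 and 261 CPM in siTP63b and 198, 193 and 205 CPM in siGRHL2a (log2FC 0.37 ± 0.05, adjusted p = 2.07e-07). CYP51A1 and SC5D were also higher, by 0.23 each, while PMVK, MVD, SQLE, LSS, TM7SF2, MSMO1, NSDHL, HSD17B7, EBP and DHCR7 did not pass. The MVK call was lost without siGRHL2a replicate 3 (adjusted p = 0.0609).

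All 4 genes of fatty acid synthesis were higher in siTP63b than in siGRHL2a. FASN measured 328, 295 and 383 CPM in siTP63b and 262, 248 and 270.3 CPM in siGRHL2a (log2FC 0.37 ± 0.07, adjusted p = 0.000109). ACSS2 measured 79.5, 71.1 and 89.0 CPM in siTP63b and 70.5, 57.8 and 61.9 CPM in siGRHL2a (log2FC 0.33 ± 0.08, adjusted p = 0.0012). The gap for ACSS2 was narrow, from 70.5 to 71.1 CPM. ELOVL6 had 55.5, 50.0 and 46.7 CPM in siGRHL2a against the 67.8 to 73.7 CPM of siTP63b (log2FC 0.48 ± 0.06, adjusted p = 1.39e-07). FADS1 had 128, 117 and 132 CPM in siGRHL2a against 149 to 163 CPM in siTP63b (log2FC 0.31 ± 0.06, adjusted p = 8.95e-05), and FADS2 was higher by 0.28 ± 0.05. SCD did not pass (0.11 ± 0.04, adjusted p = 0.0582), and STARD4 was close to its level in the other groups (-0.10 ± 0.05).

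**Figure D4:**
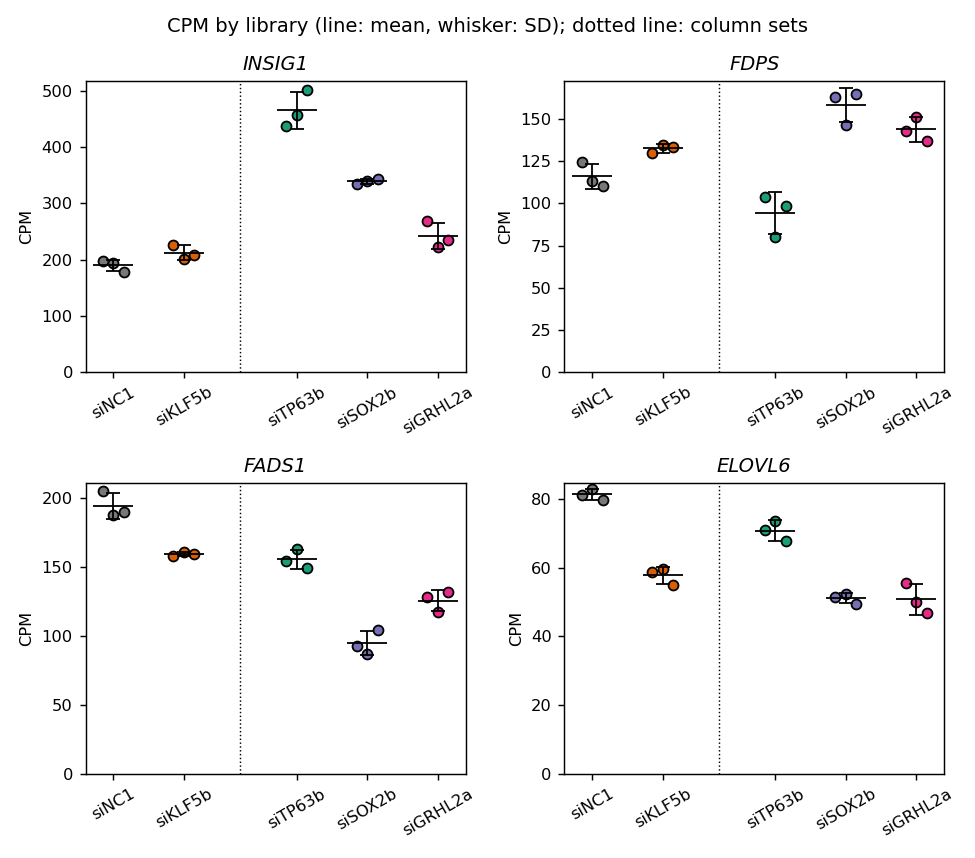
CPM (vertical axis, starting at 0) of INSIG1, FDPS, FADS1 and ELOVL6 in the 15 libraries, with points for libraries, lines for group means and whiskers for SD; the dotted line separates the sets of columns, across which no comparison was made. Among siTP63b, siSOX2b and siGRHL2a, INSIG1 runs from 438 to 502 CPM in siTP63b down to 223 to 269 CPM in siGRHL2a. Within these 3 groups FDPS is lowest in siTP63b, FADS1 is lowest in siSOX2b, and ELOVL6 is highest in siTP63b.

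Between siSOX2b and siGRHL2a, 15 of the 32 genes were higher in siSOX2b, 1 was lower and 16 did not pass. Among all tested genes 11.8% were called higher and 12.7% lower, and among those averaging 100 counts or more 17.6% and 17.3%. The median log2FC of the 32 genes was 0.18, beside -0.018 for all tested genes. None was past an absolute log2FC of 0.75, as 3.32% of tested genes were. INSIG1 again had the largest value, with 335, 339.9 and 343 CPM in siSOX2b and 269, 223 and 234 CPM in siGRHL2a (log2FC 0.49 ± 0.06, adjusted p = 2.12e-07). The order siTP63b, siSOX2b, siGRHL2a for INSIG1 therefore held without overlap between any 2 of the groups. SREBF2 was higher in siSOX2b (0.21 ± 0.05, adjusted p = 0.0023), whereas SREBF1 did not pass (0.06 ± 0.06, adjusted p = 0.498).

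The fatty acid synthesis genes passed as higher in siSOX2b as well. ACLY measured 647, 588 and 621 CPM in siSOX2b and 481, 447 and 456 CPM in siGRHL2a (log2FC 0.42 ± 0.05, adjusted p = 9.52e-08). FASN measured 359, 318 and 353 CPM in siSOX2b, above the 248 to 270.3 CPM of siGRHL2a (log2FC 0.40 ± 0.07, adjusted p = 4.66e-05). ACACA (0.15 ± 0.04) and ACSS2 (0.29 ± 0.08) passed, ACSS2 with overlapping groups. FADS1 was the single gene lower in siSOX2b than in siGRHL2a, with 92.5, 87.2 and 104 CPM against 128, 117 and 132 CPM (log2FC -0.41 ± 0.06, adjusted p = 2.19e-06). ELOVL6 (0.01 ± 0.06), SCD (0.01 ± 0.04) and FADS2 (-0.03 ± 0.05) overlapped between the groups. Without the counts of FADS1 and FEN1, FADS2 turned to a log2FC of 0.13 with groups that did not overlap, and did not pass (adjusted p = 0.0618). FADS1 and ELOVL6 thus differed in rank, since FADS1 was separate in all 3 groups and ELOVL6 was separate for siTP63b alone.

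Sterol and mevalonate genes with higher levels in siSOX2b were found at several steps. MSMO1 measured 87.4, 84.4 and 79.2 CPM in siSOX2b and 66.5, 52.9 and 63.9 CPM in siGRHL2a (log2FC 0.45 ± 0.06, adjusted p = 1.94e-06). DHCR7 measured 113, 109.6 and 105 CPM in siSOX2b and 84.0, 77.2 and 88.5 CPM in siGRHL2a (log2FC 0.40 ± 0.06, adjusted p = 1.7e-05). HMGCS1 measured 1339, 1325 and 1255 CPM in siSOX2b and 1081, 904 and 1038 CPM in siGRHL2a (log2FC 0.37 ± 0.05, adjusted p = 1.23e-06). None of these groups overlapped, and replicate 2 was the lowest siGRHL2a library for all of them. MVD had low counts, with 14.4, 12.8 and 12.0 CPM in siSOX2b and 8.59, 9.53 and 11.1 CPM in siGRHL2a (log2FC 0.43 ± 0.14, adjusted p = 0.0236), and its call was lost without siGRHL2a replicate 1 (0.114), siGRHL2a replicate 2 (0.0655) or siSOX2b replicate 1 (0.107). ACAT2, IDI1, FDFT1, SQLE and SC5D also passed, with log2FC between 0.22 and 0.35. FDPS, MVK, PMVK, LSS, CYP51A1, TM7SF2, NSDHL, HSD17B7, EBP, SCAP, INSIG2 and STARD4 did not pass.

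**Figure D5:**
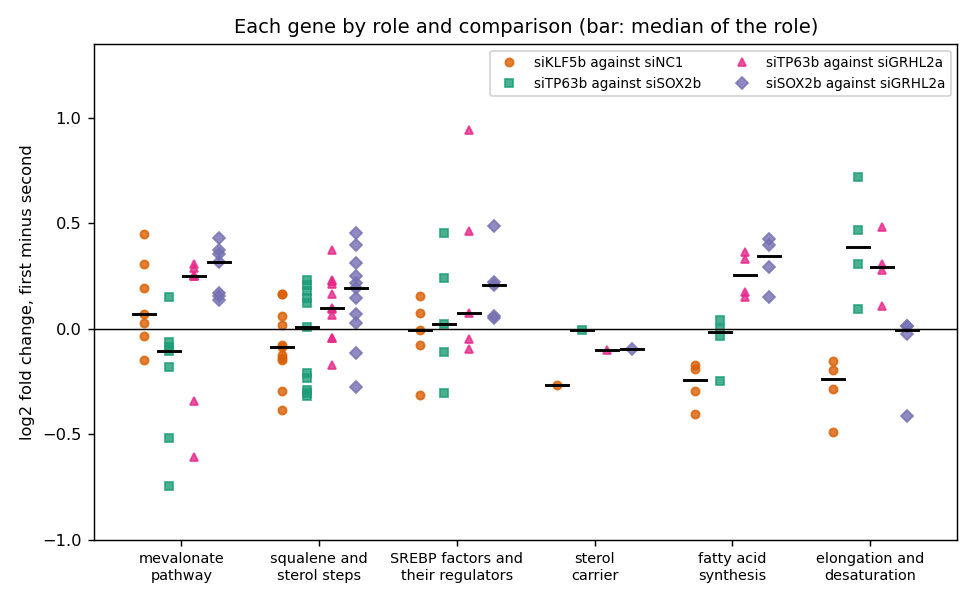
Log2 fold change (vertical axis) of each of the 32 genes in the 4 comparisons, grouped by role on the horizontal axis; points are genes and black bars are the median of the role. Fatty acid synthesis has a median of -0.24 in siKLF5b against siNC1 and of 0.35 in siSOX2b against siGRHL2a, and elongation and desaturation a median of 0.39 in siTP63b against siSOX2b; the last 3 comparisons share libraries.

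Single libraries stood out among the 32 genes. Replicate 2 was the lowest library of its group for 19 of 32 genes in siTP63b and for 19 of 32 genes in siGRHL2a, and siNC1 replicate 1 was the highest library for 20 of 32 genes. Replicate 3 was the highest library of siTP63b and the lowest of siNC1 for 18 of 32 genes each. The decreases in siKLF5b named with their library values passed without siNC1 replicate 1 or 3 as well. The INSIG1, FDPS, FADS1 and ELOVL6 calls among the other 3 groups passed without replicate 2 of siTP63b or siGRHL2a and without siTP63b replicate 3. Counts were made over the whole gene span, and 21 of the 32 genes overlap another gene. For 14 of them, the overlapping genes had counts of over 10% of their own, and HMGCS1 (a long noncoding RNA with 55.2% as many counts), TM7SF2 (VPS51, 572%) and EBP (a second protein-coding gene model, 104%) are among these. The percentages given for overlapping genes cover the whole of the other gene, and reads in the shared bases were not counted apart. The overlap can be short, since VPS51 ends at base 65111862 and TM7SF2 starts at base 65111845.

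Related pathways were counted in the same way among the TP63, SOX2 and GRHL2 knockdowns. The shares over all tested genes were 16.4% higher and 15.4% lower for siTP63b against siSOX2b. They were 13.6% and 13.4% for siTP63b against siGRHL2a, and 11.8% and 12.7% for siSOX2b against siGRHL2a. Among genes averaging 100 counts or more they were 21.8% and 21.3%, 19.4% and 17.6%, and 17.6% and 17.3% in the same order. In sterol transport, storage and efflux, siTP63b had 3 genes higher and 5 lower of 13 against siSOX2b, and 3 higher and 3 lower against siGRHL2a. ABCG1 was lower in siTP63b in both comparisons (-1.26 ± 0.07 and -1.004 ± 0.07), as was LIPA, the lysosomal lipase that frees cholesterol from its esters (-0.82 ± 0.05 and -0.78 ± 0.05). The 3 genes of the list that were higher in siTP63b were so in both comparisons, and are named after their values were seen. The sterol exporter ABCA1 measured 3.44 ± 0.158 CPM in siTP63b, 0.948 ± 0.383 in siSOX2b and 1.37 ± 0.0254 in siGRHL2a (log2FC 1.803 ± 0.20 and 1.32 ± 0.18). SOAT1, which esterifies cholesterol (0.39 ± 0.06 and 0.55 ± 0.06), and MYLIP (0.28 ± 0.09 and 0.59 ± 0.09) were the others. Against siGRHL2a, siSOX2b had 4 genes of this list higher and 1 lower, with NPC1 at 0.33 ± 0.05 and ABCG1 at 0.26 ± 0.06. In SREBP processing, MBTPS1 was lower in siTP63b than in siSOX2b (-0.84 ± 0.05, adjusted p = 1.09e-14) and than in siGRHL2a (-0.88 ± 0.05, adjusted p = 5.77e-15). Its mean level was 65.1 CPM in siTP63b, 117 in siSOX2b and 119 in siGRHL2a. ERLIN2, a factor of sterol-regulated protein degradation, was highest in siSOX2b, with -0.90 ± 0.05 for siTP63b against siSOX2b, -0.25 ± 0.05 for siTP63b against siGRHL2a and 0.65 ± 0.05 for siSOX2b against siGRHL2a. That list had 3 higher and 4 lower of 9, 2 higher and 2 lower, and 3 higher and 1 lower, in the same order.

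Other fatty acid genes had 6 higher and 5 lower of 22 for siTP63b against siSOX2b, 7 higher and 2 lower against siGRHL2a, and 10 higher and 3 lower for siSOX2b against siGRHL2a. HSD17B12, a reductase of the elongation cycle, was higher in siTP63b than in siSOX2b (0.56 ± 0.05), as was AACS, which makes acetoacetyl-CoA (0.70 ± 0.08). AACS was lower in siSOX2b than in siGRHL2a (-0.69 ± 0.08). The elongase ELOVL5 (0.53 ± 0.05) and the acyl-CoA synthetase ACSL4 (0.43 ± 0.05) were higher in siTP63b than in siGRHL2a, and ACSL4 was also higher in siSOX2b (0.40 ± 0.05). Fatty acid oxidation had 4 higher and 6 lower of 22 for siTP63b against siSOX2b, 1 higher and 5 lower against siGRHL2a, and 1 higher and 2 lower for siSOX2b against siGRHL2a, the last below the shares over all tested genes in both directions. CPT1A was lower in siSOX2b than in siTP63b (0.48 ± 0.05 for siTP63b) and than in siGRHL2a (-0.61 ± 0.05), PPARA was lower in siSOX2b than in siGRHL2a (-0.47 ± 0.08), and HADH (-0.58 ± 0.07 and -0.45 ± 0.07) was lower in siTP63b than in the other 2 groups. ETFB was lower in siTP63b than in siGRHL2a (-0.47 ± 0.11).

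Glycerolipid genes had 1 higher and 4 lower of 14 for siTP63b against siSOX2b, 3 and 3 against siGRHL2a, and 2 and 1 for siSOX2b against siGRHL2a. PNPLA2, which starts the breakdown of stored triglyceride, was lower in siSOX2b than in siTP63b (0.78 ± 0.14 for siTP63b) and siGRHL2a (-0.72 ± 0.14). GPAM, the first acyltransferase of glycerolipid synthesis, was lower in siGRHL2a than in siTP63b (0.35 ± 0.08 for siTP63b) and siSOX2b (0.36 ± 0.08 for siSOX2b), CHKA was higher in siTP63b than in siGRHL2a (0.35 ± 0.07), and LPCAT3 was lower in siTP63b than in siSOX2b (-0.19 ± 0.05). The isoprenoid list had 1 higher and 2 lower of 12, 4 higher and 1 lower, and 1 higher and 0 lower in the same order. DHDDS of dolichol synthesis was lower in siTP63b than in siSOX2b (-0.37 ± 0.08) and siGRHL2a (-0.23 ± 0.08), its partner NUS1 was higher than in siSOX2b (0.25 ± 0.06), PGGT1B was higher than in siGRHL2a (0.25 ± 0.06), and COQ2 was the 1 gene higher in siSOX2b than in siGRHL2a (0.42 ± 0.11). The stress response list had 2 higher and 4 lower of 9, 3 higher and 2 lower, and, for siSOX2b against siGRHL2a, 6 higher and 0 lower. TRIB3 was higher in siTP63b than in siSOX2b (0.86 ± 0.09) and siGRHL2a (0.97 ± 0.09), ATF3 was higher in siSOX2b than in siTP63b (-1.01 ± 0.10 for siTP63b) and siGRHL2a (0.55 ± 0.10), and PSAT1 was lowest in siGRHL2a (0.69 ± 0.05 for siTP63b and 0.37 ± 0.05 for siSOX2b).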

How the data were processed

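Poly(A) RNA-seq of 15 HCC95 libraries was analysed. For alignment to hg38 the authors used HISAT2 2.2.1, and counting on Gencode release 40 was by featureCounts 2.0.1. The deposited values are raw counts per gene without normalization, over the whole gene span, so intronic reads are included. Whether strand was used and whether reads or fragments were counted is not given in the sources used here. No column was left unmatched to a library (0).

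One edgeR 4.0.16 quasi-likelihood fit (R 4.3.3) of the 15 libraries was used, with TMM factors, filterByExpr and Benjamini-Hochberg adjustment over 25108 genes. A gene passed at an adjusted p below 0.05. The fit was tested on simulated data. Library values are given for up to 8 members per comparison with the largest changes among those that passed without overlap of the groups; SREBF1, SREBF2, INSIG1, FASN and SCD are given in every comparison, with up to 2 genes per related list of smallest adjusted p. The members and lists were chosen with earlier results of these data known. Alternatives were other size factors, other count filters, the replicate block, only libraries of the same set, halved counts of 9 libraries, DESeq2 1.42.0, a log2FC threshold of 0.75 and each library left out. Replicates differed by more than sampling noise. Promoters came from RefSeq (GRCh38.p14).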

Additional observations from a re-analysis of the deposited data

How the results depend on the processing

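Of 176 counts and medians recomputed under alternatives, 156 kept their direction and stayed within their limits, and of 1796 recomputed values of single genes 1677 kept their direction and side of the threshold. Of the genes that passed, 10 of 13 (siKLF5b against siNC1), 12 of 17 (siTP63b against siSOX2b), 16 of 17 (siTP63b against siGRHL2a) and 15 of 16 (siSOX2b against siGRHL2a) passed at an adjusted p below 0.05 under every alternative other than the added log2FC threshold of 0.75. Lost under some were CYP51A1, FDPS and FADS2, then EBP, FDFT1, INSIG2, LSS and PMVK, then MVK, then MVD, and no gene that passed changed sign. Genes that did not pass as reported passed under some alternatives: ACSS2, IDI1, INSIG1 and SQLE for siKLF5b against siNC1, MVD, SCD and SREBF1 for siTP63b against siSOX2b, DHCR7, HSD17B7, MSMO1, SCD and SQLE for siTP63b against siGRHL2a, and INSIG2 for siSOX2b against siGRHL2a. With only the libraries of the same set, the genes higher and lower numbered 3 and 14, 6 and 8, 16 and 1, and 15 and 1 in the same order. With an absolute log2FC above 0.75 also required, the genes higher and lower numbered 0 and 0 for siKLF5b against siNC1, 0 and 0 for siTP63b against siSOX2b, 1 and 0 for siTP63b against siGRHL2a, and 0 and 0 for siSOX2b against siGRHL2a, since that threshold is stricter. With 1 library left out, which also leaves fewer samples, the genes higher in siKLF5b numbered 0 to 2, being 0 without siKLF5b replicate 1 or siNC1 replicate 2 and 1 without siKLF5b replicate 3 or siNC1 replicate 3, and the median log2FC of the 32 genes ranged from -0.14 (without siNC1 replicate 3) to -0.097. For siTP63b against siSOX2b the genes higher numbered 5 to 7 with 1 library left out, being 5 without siSOX2b replicate 1, siSOX2b replicate 3 or siTP63b replicate 3. The median there lies near 0 and changed sign to 0.0093 with upper-quartile factors and 0.0033 with no low-count filter, and ranged from -0.045 to 0.029 with 1 library left out. The cause of these sign changes was not tested.

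Single genes that did not pass as reported also changed sign. For siKLF5b against siNC1, SCAP became 0.013 with upper-quartile factors, 0.0014 with at least 10 counts in every library, 0.011 with only libraries of the same set and 0.013 with halved counts. With 1 library left out SCAP ranged from -0.066 to 0.063, HSD17B7 from -0.081 to 0.073 and INSIG2 from -0.025 to 0.15. For siTP63b against siSOX2b, ACACA became -0.00015 with RLE size factors, -0.0031 with at least 10 counts in every library, -0.0026 with only libraries of the same set and -0.00029 with DESeq2, and STARD4 became 0.0064 with upper-quartile factors and 0.00042 with no low-count filter. With 1 library left out SC5D ranged from -0.031 to 0.068, STARD4 from -0.027 to 0.0041, ACSS2 from -0.046 to 0.12, ACACA from -0.026 to 0.025, FASN from -0.14 to 0.050 and SCAP from -0.048 to 0.074. For siTP63b against siGRHL2a, TM7SF2 ranged from -0.15 to 0.040, LSS from -0.033 to 0.15, EBP from -0.16 to 0.085 and SREBF1 from -0.13 to 0.014. For siSOX2b against siGRHL2a, ELOVL6 became -0.0059 and SCD -0.0041 with upper-quartile factors, FADS2 became 0.13 without the counts of FADS1 and FEN1, an alternative chosen after seeing the data, and with 1 library left out CYP51A1 ranged from -0.035 to 0.087, ELOVL6 from -0.031 to 0.088 and FADS2 from -0.063 to 0.019.

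The labels do not say whether libraries of the same replicate number were paired. Their deviations from the group means correlated between -0.22 and 0.11. With the replicate number as a block, 2 genes were higher and 11 lower for siKLF5b against siNC1, 8 and 9 for siTP63b against siSOX2b, 17 and 1 for siTP63b against siGRHL2a, and 15 and 1 for siSOX2b against siGRHL2a. DESeq2 gave 2 and 13, 8 and 8, 18 and 1, and 16 and 1. Halving the counts of the 9 libraries gave 3 and 11, 8 and 9, 17 and 1, and 15 and 1 in the same order. PMVK, MVD and TM7SF2, the genes with the fewest counts of the 32, had standard errors of 0.14 to 0.24 on the log2 scale in the 4 comparisons, against at most 0.096 for the others, so their values are the least precise.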
